A study of Mus musculus with 4 samples.

Results

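The neuregulins and the ErbB receptors were followed as 8 genes in single nuclei of the mouse hippocampus, namely the ligands Nrg1, Nrg2, Nrg3 and Nrg4 and the receptors Erbb2, Erbb3, Erbb4 and Egfr. They were taken by gene name and are 8 of 56748 genes counted. Male mice went through repeated social defeat (RSD), 2 h a night on 6 nights, or stayed undisturbed, and hippocampi of 3 mice per condition were pooled for nuclei 14 h after the last defeat. The stress pools and their controls came as 4 pairs. A vehicle pair and a PLX5622 pair (Con-Veh, Stress-Veh, Con-PLX, Stress-PLX) differed in chow, which held the CSF1R inhibitor PLX5622 at 1200 mg/kg from 7 days before RSD, and the genotype of these mice was not in the labels. An IL-1R1+/+ pair (WT in the labels) and an nIL-1R1-/- pair (KO), with no diet named, differed in a Vglut2-driven Cre deletion of the interleukin-1 receptor gene Il1r1 from glutamatergic neurons. Each condition was therefore 1 pool, the SD given below is over pools of different condition, and p-values measure the spread among these pools.

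Neuregulins are growth factors with an EGF-like domain that are made mostly as membrane-bound precursors and are released or presented after cleavage by proteases. They bind ERBB3 or ERBB4, which pair with each other or with ERBB2, a receptor with no known ligand of its own, whereas EGFR answers to EGF, TGF-alpha and related ligands. In the forebrain ERBB4 is best known from GABAergic interneurons, where neuregulins of excitatory neurons shape synapse formation and inhibition, and ERBB3 and ERBB4 also serve the oligodendrocyte lineage.

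The files held 57350 nuclei, of which 56834 had at most 20% mitochondrial UMIs (unique transcript counts), and 44841 of these fell into the classes used here. Nuclei of all 8 pools were spread over 4 sublibraries. Pools held 7534594 to 58081835 UMIs. Median UMIs per nucleus were 598 and 628 in the Con-PLX and Stress-PLX pools, 1325.5 in Stress-Veh and 2563 to 5012 in the other pools, so values of both PLX5622 pools carry the widest counting error. The deletion was checked on Il1r1, which in dentate gyrus (DG) nuclei was at 10.8 and 9.04 CPM (UMIs of the gene scaled to a common total per class and pool) in the nIL-1R1-/- control and RSD pools, at 61.3 and 29.1 in the IL-1R1+/+ pools and at 51.4 to 86.2 in the 4 diet pools. Classes were rebuilt here by clustering and named from markers, so each name means a class like the named cell. They comprised DG, CA1, CA2/3, subicular or deep-layer, Slc17a6, Cajal-Retzius and Fat2 granule neurons, 4 excitatory classes named by a leading gene (Igfn1, Fn1, Npsr1, Kcnh8), inhibitory neurons of Lhx6, Adarb2/Vip and neurogliaform type, and oligodendrocytes, committed and other oligodendrocyte precursors (OPC), astrocytes, microglia and endothelial cells. Fat2 and Gabra6, which mark the Fat2 class, are known from cerebellar granule cells, and 308 nuclei left without a class carried markers of striatal medium spiny neurons. Microglia numbered 66, 91, 102, 74, 35 and 109 nuclei in the Con-Veh, Stress-Veh, Con-IL-1R1+/+, Stress-IL-1R1+/+, Con-nIL-1R1-/- and Stress-nIL-1R1-/- pools, and 6 and 4 in the PLX5622 control and RSD pools. These counts follow a filter that left out 412 of the 899 nuclei of the microglial cluster as rich in neuronal RNA.

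The ligands share the EGF-like domain that contacts the receptor, and its coding bases show how far the family members differ. They are shown for Nrg1, Nrg3 and Nrg4 from the GENCODE vM39 canonical transcripts on GRCm39. Capitals mark the 6 cysteine codons, which hold the fold together. Nrg1 (chr8:32327726-32339426), Nrg3 (chr14:38390218-38734011) and Nrg4 (chr9:55149461-55188253) are all read from the minus strand, and each span includes the intron between the 2 coding exons.
Nrg1: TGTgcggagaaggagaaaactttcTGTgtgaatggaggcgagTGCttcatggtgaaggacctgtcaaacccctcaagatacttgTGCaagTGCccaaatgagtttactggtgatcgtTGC
Nrg3: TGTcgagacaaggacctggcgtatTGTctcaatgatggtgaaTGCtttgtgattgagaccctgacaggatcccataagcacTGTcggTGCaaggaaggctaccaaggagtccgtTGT
Nrg4: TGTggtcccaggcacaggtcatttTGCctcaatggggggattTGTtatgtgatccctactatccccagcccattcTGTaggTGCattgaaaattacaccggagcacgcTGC

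Aligned to each other, Nrg1 and Nrg3 encode the same residue at 14 positions (35.9% of the shorter), Nrg1 and Nrg4 at 14 (37.8%) and Nrg3 and Nrg4 at 17 (45.9%). The receptors were compared at the catalytic loop of the kinase domain. The 27 coding bases lie within 1 exon each, on the plus strand for Erbb2 (chr11:98325070-98325096) and Egfr (chr11:16854335-16854361) and on the minus strand for Erbb3 (chr10:128408402-128408428) and Erbb4 (chr1:68119898-68119924). Capitals mark the codon that encodes a different residue in Erbb3.
Erbb2: gttcacagggacctagctGCCcgaaac
Erbb3: gtgcatagggaccttgcgCTCcggaat
Erbb4: gttcatcgggatctggcaGCCcgcaat
Egfr: gtgcaccgtgacttggcaGCCaggaat

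Erbb3 encodes 8 of these 9 residues as the other receptors do, and Erbb2, Erbb4 and Egfr encode all 9 alike. Among the genes, 3 are very long on GRCm39. Nrg1 (chr8:32303906-33374825), Nrg3 (chr14:38087063-39196036) and Erbb4 (chr1:68071345-69147619) span 1070.9, 1109.0 and 1076.3 kb. Nrg2 spans 180.6 kb on chromosome 18, Egfr (chr11:16702198-16868158) 166.0 kb and Nrg4 (chr9:55121336-55234128) 112.8 kb. Erbb2 (chr11:98303203-98328542) and Erbb3 (chr10:128403392-128425811) span 25.3 and 22.4 kb. Nuclear RNA is rich in unspliced transcripts, in which long genes offer more sites to count, and levels are set against each other between genes only per kb of gene span. Over all nuclei Nrg3 gave 1053933 UMIs, Nrg1 308003, Erbb4 216840, Nrg2 47997, Egfr 4217, Nrg4 1485, Erbb3 758 and Erbb2 38. A second gene identifier named Nrg1, 186 bp inside the gene, held 4 UMIs and is left aside, and other annotated genes overlap these spans, so reads from them could not be told apart where strand was not used in counting, which is not given in the sources used here.

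Among the ligands and over the named classes, Nrg1 was highest in a set of excitatory neurons. A cluster left without a class, 308 nuclei with medium spiny markers of which 91.9% came from 2 pools, was above all of them at 5880.0 CPM. It stood at 3624 ± 548 CPM in Npsr1-led neurons (SD, n = 8 pools), 3511 ± 906 CPM in Igfn1-led neurons and 3225 ± 617 CPM in subicular or deep-layer neurons. The Npsr1-led class ran from 3201 to 4893 CPM with a median of 3515. Kcnh8-led neurons followed with 2048 ± 251 CPM. Among the principal neurons CA1 had 1179 ± 168 CPM, DG 747 ± 90.6 CPM and CA2/3 419 ± 71.0 CPM, and the ranges of CA1 and CA2/3 over pools did not overlap. With every nucleus thinned to 500 UMIs, 77.4% of Npsr1-led, 39.2% of CA1 and 15.2% of CA2/3 nuclei had an Nrg1 UMI, against 6.48% of endothelial nuclei, where Nrg1 was lowest of all classes. Without thinning the shares were 94.0%, 69.3%, 57.4% and 28.3%, at median depths of 2384.5, 1956, 3948 and 1678 UMIs. Thinning left out nuclei under 500 UMIs, which kept 1302 of 1370, 5828 of 7293, 4008 of 4217 and 293 of 325 nuclei.

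Nrg3 was the broadest ligand, with a mean of 3406 CPM or more in every neuronal class. Its highest level was 7179 ± 1258 CPM in Kcnh8-led neurons (SD, n = 8), then 6184 ± 836 CPM in subicular or deep-layer neurons and 5304 ± 715 CPM in CA2/3, and its lowest neuronal level in the Fat2 class (n = 4). DG had 4339 ± 756 CPM. OPC had 2338 ± 125 CPM, with pools from 2071 to 2506 CPM with a median of 2369. Glial levels depended on a filter that left out glial nuclei rich in neuronal RNA and was set after cluster tables had been seen. With those nuclei kept, Nrg3 was at 3349.7 ± 388 CPM in OPC and 3469.9 ± 835 CPM in microglia, beside 1352 CPM in microglia with the filter, and Nrg1 in microglia was at 1177 beside 433 CPM. Nrg2 gave another order, led by the Fat2 class, neurogliaform neurons and dentate neurons. It stood at 508 ± 221 CPM in the Fat2 class (n = 4), 484 ± 48.2 CPM in neurogliaform inhibitory neurons and 458 ± 49.8 CPM in DG (both n = 8), and at 121 ± 12.7 CPM in CA1 and 78.1 ± 12 CPM in CA2/3. DG exceeded the next class, Kcnh8-led neurons, in 8 of 8 pools by a mean of 0.95 on the log2 scale of CPM + 1, and CA1 exceeded CA2/3 in 8 of 8 by 0.63. Neurogliaform neurons and DG did not differ beyond their spread (0.08, 6 of 8 pools). Nrg4 was scarce. Its mean was 25.0 ± 22.4 CPM in the Fat2 class, 9.80 ± 3.45 CPM in Lhx6 inhibitory neurons, and 8.57 CPM or less in every other class.

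Among the receptors, Erbb4 was by far the most counted, and it stood out in inhibitory neurons. Neurogliaform neurons had 10229.8 ± 1441 CPM (SD, n = 8), with pools from 7618 to 11893 CPM with a median of 10413. Lhx6 neurons, the lineage of Sst and Pvalb cells, had 4535 ± 588 CPM, and Adarb2/Vip neurons 4093 ± 488 CPM. The neurogliaform level exceeded the Lhx6 level in 8 of 8 pools by a mean of 1.17 on the log2(CPM + 1) scale. Lhx6 exceeded Adarb2/Vip in 7 of 8 pools by 0.15, with an SD of 0.13. Glia of the oligodendrocyte lineage came next, with 2778 ± 406 CPM in OPC, 2728 ± 955 CPM in committed OPC (n = 3) and 2521 ± 502 CPM in oligodendrocytes. Adarb2/Vip neurons exceeded OPC in 8 of 8 pools by 0.56. With glial nuclei rich in neuronal RNA kept, Erbb4 was at 1871 ± 367 CPM in OPC and 2386 ± 484 CPM in oligodendrocytes. At 500 UMIs a nucleus, 95.9% of neurogliaform, 76.4% of Adarb2/Vip, 63.3% of Lhx6, 67.3% of OPC and 62.6% of oligodendrocyte nuclei had an Erbb4 UMI, against 6.48% of endothelial nuclei (19 of 293, exact binomial 95% interval 3.95 to 9.94%). That interval covers counting error over the nuclei of all pools and not the spread of pools. By pool the endothelial share was 5.77% ± 5.46 (SD, n = 7 pools), from 0 to 14.3%. DG, CA1 and CA2/3 had 6.96%, 7.26% and 7.19%, near the endothelial share. Without thinning, the shares were 98.7% in neurogliaform neurons, 83.6% in OPC, 73.9% in oligodendrocytes, 26.2% in endothelial cells and 24.5% in DG, at median depths of 2164, 1220.0, 852, 1678 and 1653 UMIs.

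The low Erbb4 level of excitatory neurons was therefore set beside Gad2, the GABA-synthesizing enzyme that excitatory neurons should lack. Relative to the inhibitory classes of the same pool, Erbb4 in DG was 3.65% ± 1.53 (SD, n = 8) and Gad2 3.05% ± 0.741. In CA1 the shares were 4.28% ± 1.66 and 3.75% ± 1.97, and in CA2/3 3.84% ± 1.54 and 3.34% ± 1.66. Erbb4 in DG, CA1 and CA2/3 thus lay at about the share that Gad2 had there. Whether these UMIs came from the excitatory nuclei or from RNA of other cells was not tested. Oligodendrocytes differed, with Erbb4 at 50.9% ± 7.87 of the inhibitory level and Gad2 at 4.14% ± 2.84, and OPC had 56.3% ± 6.44 and 1.46% ± 1.66. Astrocytes had 11.6% ± 6.25 and 5.72% ± 4.85, and their ranges over pools met.

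**Figure D1:**
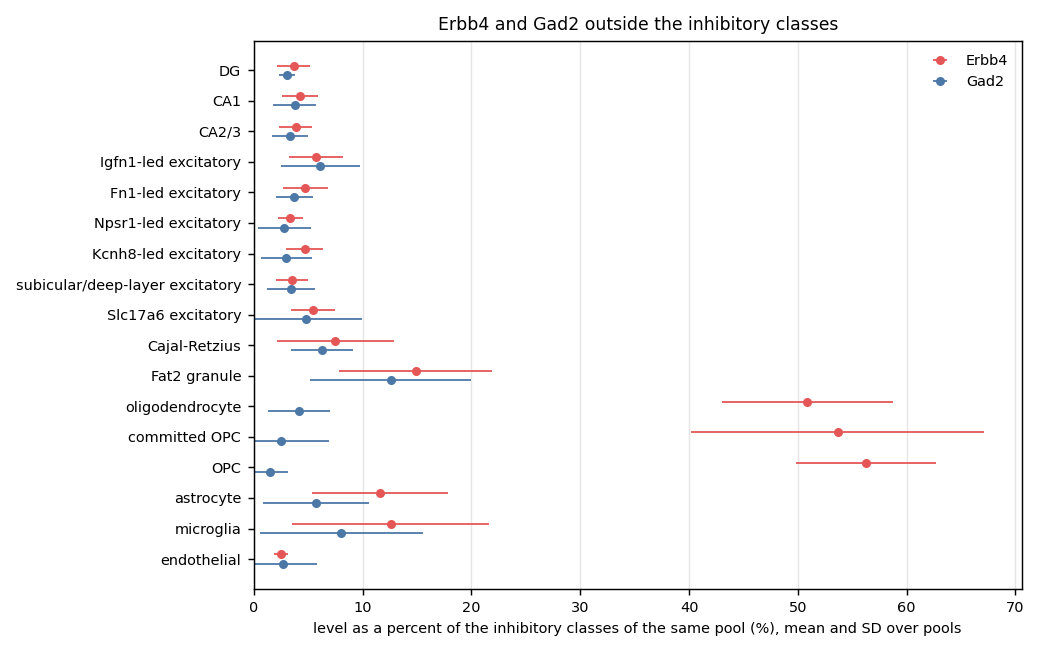
Level of Erbb4 (red) and Gad2 (blue) in each class outside the inhibitory neurons, as a percent of the level in the inhibitory classes of the same pool (x axis), with points for the mean and bars for the SD over pools; bars that would pass below 0 end at the axis. In oligodendrocytes, committed OPC and OPC, Erbb4 is at 50.9 to 56.3% with Gad2 at 1.46 to 4.14%, while both genes sit close together in DG, CA1 and CA2/3.

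Egfr, the receptor for EGF and TGF-alpha, was highest in neurogliaform neurons and astrocytes. Neurogliaform neurons had 362 ± 100.4 CPM (SD, n = 8), from 179.6 to 504 CPM with a median of 364, and astrocytes 297 ± 78.7 CPM, from 194 to 377 CPM with a median of 322, and the ranges overlap. Adarb2/Vip neurons had 95.4 ± 32.2 CPM, below astrocytes in 8 of 8 pools by 1.65 on the log2(CPM + 1) scale, and Lhx6 neurons 19.3 ± 7.47 CPM. With glial nuclei rich in neuronal RNA kept, the astrocyte level was 197 ± 48.5 CPM. Thinned to 500 UMIs, 17.2% of neurogliaform and 13.3% of astrocyte nuclei had an Egfr UMI, against 0.206% of CA1 nuclei. Unthinned, these shares were 44.3%, 23.7% and 1.14%, at median depths of 2164, 815 and 1956 UMIs. A cluster with leptomeningeal markers, too small for comparisons at 57 nuclei over all pools, had 1111 CPM (95% Poisson interval 948 to 1294, counting error only). Erbb3 was found mostly in oligodendrocytes, at 129 ± 52.8 CPM (n = 8), with 36.2 ± 9.30 CPM in OPC (16.3 ± 5.54 CPM with glial nuclei rich in neuronal RNA kept) and 5.52 CPM or less in every class outside the oligodendrocyte lineage. At 500 UMIs, 6.54% of oligodendrocyte and 1.30% of OPC nuclei had an Erbb3 UMI, against 0.0117% in DG, and unthinned 14.4%, 5.47% and 0.242%. Its lowest oligodendrocyte value, 20.6 CPM in Con-PLX, rests on 1 UMI. Erbb2 gave 38 UMIs in all, and its highest mean, 8.12 ± 6.46 CPM in endothelial cells (n = 7), rests on 8 UMIs. At this depth Erbb2 could be neither placed in a class nor compared.

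**Figure D2:**
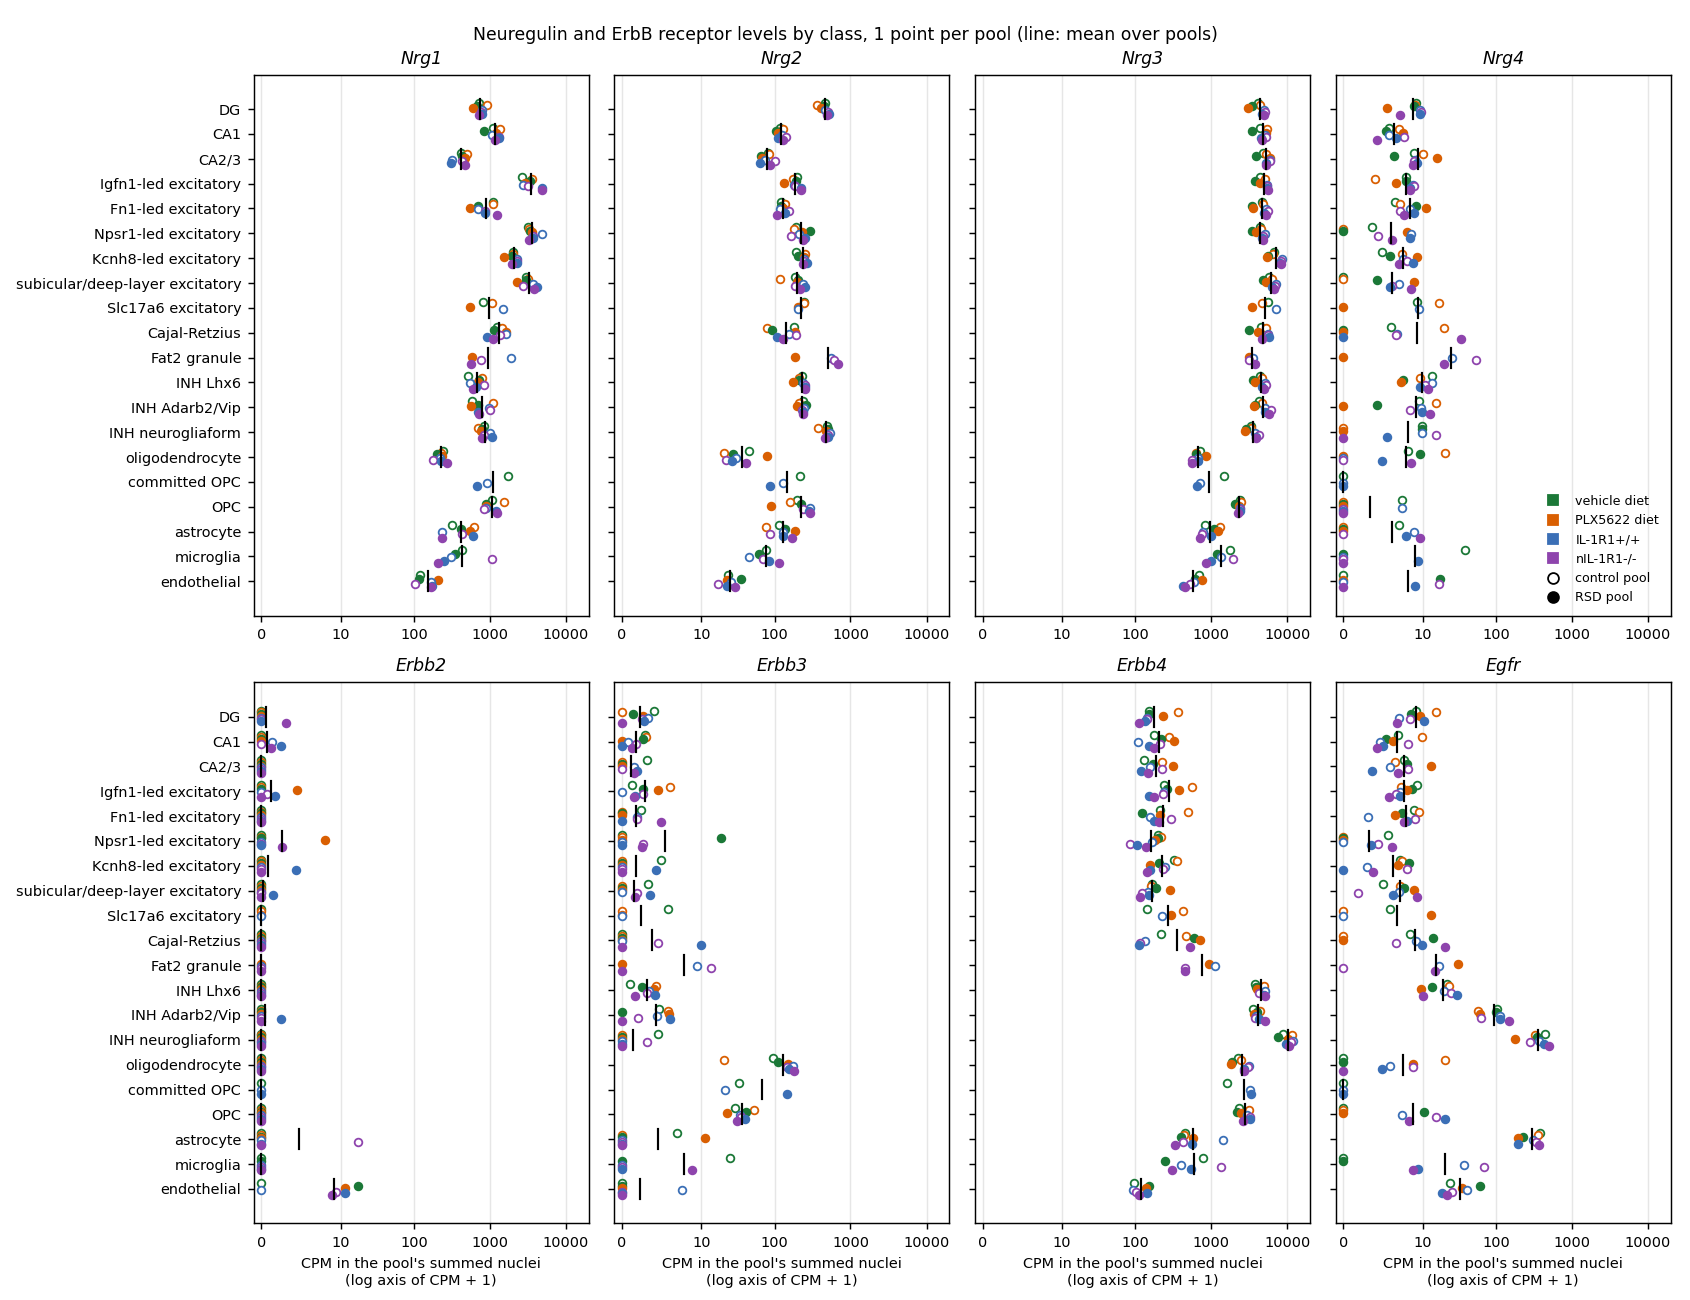
CPM of each gene (panels) in each class (rows), 1 point per pool on a log axis of CPM + 1, open for control and filled for RSD pools, coloured by pair, with a line at the mean. Nrg1, Nrg2 and Nrg3 are present in all neuronal classes, Erbb4 peaks at 10229.8 CPM in neurogliaform neurons, Egfr in neurogliaform neurons and astrocytes, Erbb3 in oligodendrocytes, and Nrg4 and Erbb2 lie near 0.

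Set per kb of gene span, the highest class levels came in the order Erbb4 (9.50 ± 1.34 CPM per kb in neurogliaform neurons), Nrg3 (6.47 ± 1.13 in Kcnh8-led neurons), Erbb3 (5.76 ± 2.35 in oligodendrocytes), Nrg1 (3.38 ± 0.512 in Npsr1-led neurons), Nrg2 (2.81 ± 1.22 in the Fat2 class, n = 4) and Egfr (2.18 ± 0.605 in neurogliaform neurons), with SD over 8 pools unless stated. On this scale Erbb3 was near the level of Nrg3, and their spreads overlapped, although its UMIs were few. The scale takes UMIs to grow in proportion to gene span, which was not tested, so this order depends on that assumption. Neighbouring classes in the order of each gene were compared by an exact two-sided sign-flip permutation test over pools, 152 pairs in all. None was called. The smallest p that 8 pools allow in this sign-flip test, 0.0078, was reached by 9 pairs. With that number of pairs the adjusted p was 0.132. An unadjusted p under 0.05 was found for 17 pairs, and the orders above rest on the counts of pools.

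Counting UMIs over classes, and so including class size, gave other main sources for Nrg1, Nrg2 and Nrg3 than for Erbb4. Excitatory classes gave 88.9% ± 3.21 of Nrg1 UMIs (SD, n = 8 pools), 82.2% ± 2.02 of Nrg3 and 77.5% ± 1.45 of Nrg2, and inhibitory classes 9.58% ± 2.90, 16.7% ± 1.68 and 20.4% ± 1.72. For Erbb4 the shares were reversed, with 78.7% ± 3.17 from inhibitory classes, 14.9% ± 3.80 from excitatory classes and 5.46% ± 2.66 from the oligodendrocyte lineage. Egfr UMIs came to 60.3% ± 10.6 from inhibitory classes, 19.9% ± 5.51 from excitatory classes and 13.5% ± 8.68 from astrocytes. Erbb3 UMIs came to 67.4% ± 20.4 from the oligodendrocyte lineage, 22.0% ± 14.4 from excitatory and 8.88% ± 8.59 from inhibitory classes. Excitatory classes held most nuclei and most UMIs of all genes. In Con-Veh they held 26149791 UMIs, beside 3452289, 1456014 and 513502 in Lhx6, Adarb2/Vip and neurogliaform neurons. The excitatory shares of the ligands thus include this class size and were not set against it. By themselves they do not show enrichment of the ligands in excitatory neurons.

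**Figure D3:**
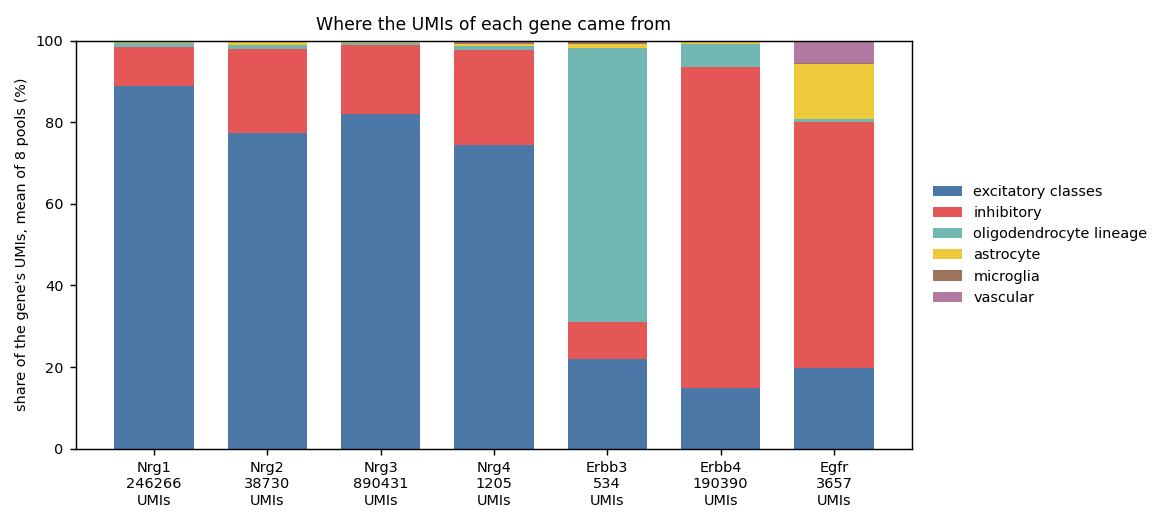
Share of each gene's UMIs that came from excitatory, inhibitory, oligodendrocyte-lineage, astrocyte, microglial and vascular classes (stacked, %, mean of 8 pools), with the number of UMIs in classes under each gene; Erbb2, with 30 UMIs in classes, is not drawn. Nrg1, Nrg2, Nrg3 and Nrg4 are mostly excitatory at 74.5 to 88.9%, and Erbb4 is mostly inhibitory at 78.7%. The shares include class size, and excitatory classes held most UMIs of all genes.

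Ligand UMIs in glia were set beside RNAs that mark neurons. In oligodendrocytes Nrg1, Nrg2 and Nrg3 were at 16.4% ± 4.18, 16.5% ± 8.38 and 14.0% ± 3.64 of their level in neurons of the same pool, where the synaptic gene Syt1 was at 14.4% ± 1.90 and the long noncoding RNA Meg3 at 13.7% ± 2.31. The shares of these ligands were near those of the neuronal RNAs, and their source was not tested. In OPC the shares were 76.1% ± 18.8, 100.3% ± 30.6 and 48.6% ± 5.87, above Syt1 at 17.3% ± 6.0 and Meg3 at 22.2% ± 8.05. Astrocytes had Nrg2 at 57.8% ± 14.8, with Meg3 at 20.6% ± 8.65. Their Nrg1 and Nrg3 were at 424 ± 155 and 967 ± 232 CPM, beside 226 ± 28.2 and 663 ± 97.5 CPM in oligodendrocytes. The synaptic gene Snap25 was at 144 ± 48.5 CPM in OPC, 81.2 ± 29.8 CPM in astrocytes and 70.6 ± 31.1 CPM in oligodendrocytes. Glial nuclei rich in neuronal RNA had been left out beforehand (145 of 2016 oligodendrocytes, 408 of 1048 OPC and 343 of 1340 astrocytes), and Syt1 and Snap25 were both part of that filter.

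Genes with the most similar pattern were found by Pearson's r of mean log2(CPM + 1) over 20 classes among 10474 genes. These values describe the classes, which share pools and depth, and carry no test. For Erbb4 they were the noncoding RNA Sox2ot (r = 0.94) and the zinc finger gene Zfp536 (0.90). For Egfr they were Hapln1 (0.87), which was among the markers used to name neurogliaform neurons, Amot (0.84) and Sox1ot (0.83). For Erbb3 they were Gm10863 (0.97), Prkcq (0.96) and 1700047M11Rik (0.95). Among the ligands, Nrg1 was most like Khdrbs2 (0.88), Gsg1l (0.88) and Arpp21 (0.86), Nrg2 most like Negr1 (0.90), Slc2a13 (0.89) and Tenm1 (0.88), and Nrg3 most like the neuronal transcription factor gene Myt1l (0.98), Cdr1os (0.98) and Ksr2 (0.97). The lists for Nrg4 and Erbb2 rest on few UMIs and are not given.

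The effect of RSD was tested in each class over the 4 pairs of control and RSD pools (edgeR quasi-likelihood test with Benjamini-Hochberg adjustment over all genes of the class, in 17 classes). The fit takes RSD to add equally in every pair. A change confined to some diets or genotypes, or opposite between them, could therefore be missed. A single change passed, a fall of Erbb4 in Kcnh8-led excitatory neurons, out of 82 tests of the 8 genes. Over all genes and classes 0.393% of tests were called and 0.155% as lower, and within this class 0.239% of genes were called. Erbb4 in these neurons was at 322, 354, 249 and 232 CPM in the vehicle, PLX5622, IL-1R1+/+ and nIL-1R1-/- control pools and at 209, 159, 157 and 142 CPM in the matching RSD pools. Every control pool was above every RSD pool. The log2 change was -0.76 (SE 0.14, edgeR adjusted p = 0.00394). The level is low, at 4.68% ± 1.70 of that of inhibitory neurons, where Gad2 was at 3.00% ± 2.34. The summed RNA of the inhibitory markers Gad1, Gad2, Slc32a1, Dlx1 and Dlx6os1 was at 85.2, 44.3, 146 and 57.2 CPM in the controls and 43.7, 46.0, 51.1 and 45.3 CPM after RSD, and these overlap. Gad2 alone was at 9.84 to 16.3 CPM in the controls and 0 to 9.13 CPM after RSD, so it separated the groups in the same direction as Erbb4, on 0 to 20 UMIs a pool. Genes of 500 kb and more had a median log2 change of -0.13 there, against 0.00 for shorter genes, with 7 of 220 called (3.18%) against 0.151%. Depth differed too, with median UMIs per nucleus over all nuclei of 2563 in Con-Veh and 1325.5 in Stress-Veh. They were 5012 and 2580 in the nIL-1R1-/- control and RSD pools. In the PLX5622 and IL-1R1+/+ pairs they were 598 and 628, and 3098.5 and 3218.5. The part of inhibitory RNA, of gene length and of depth in the Erbb4 value was not tested. Over 17 alternatives the call was lost in 7. Lifting the glial filter, leaving out DG and CA1 clusters of shallow nuclei and including pool-specific clusters left the Kcnh8-led nuclei unchanged. In those alternatives the call could not change. It was lost with DESeq2 (-0.77, adjusted p = 0.276), without the pairing (-0.78, edgeR adjusted p = 0.286), without the IL-1R1+/+ pair (-0.82, edgeR adjusted p = 0.129), without sublibrary 1 (-0.70, edgeR adjusted p = 0.135) or 4 (-0.58, edgeR adjusted p = 0.303), and with nuclei thinned to 500 UMIs (-0.40, edgeR adjusted p = 0.782). It was also lost without the top Scrublet scores.

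The inhibitory neurons that carry most Erbb4 showed no called change after RSD. Neurogliaform neurons were at 8904, 11497, 11893 and 11348 CPM in the controls and 7618, 10279.8, 9752 and 10546 CPM after RSD, which gave a log2 change of -0.23 (SE 0.12). Here each RSD pool was below its own control, although the groups overlap. Lhx6 neurons were at 3805, 4961, 5154 and 4322 CPM and 3887, 4017, 4946 and 5187 CPM, a log2 change of -0.03 (SE 0.10). Adarb2/Vip neurons gave 0.10 (SE 0.15). Over the 17 classes the fitted Erbb4 value was below 0 in 12 and above 0 in 5. The extremes were -1.14 in microglia (edgeR adjusted p = 0.704) and 1.14 in Cajal-Retzius neurons (edgeR adjusted p = 0.174), and neither passed. In oligodendrocytes Erbb4 was at 2239, 2448, 3176 and 3098 CPM in the controls and 1904, 1850.1, 2716 and 2740.1 CPM after RSD (-0.25, SE 0.11, edgeR adjusted p = 0.528). Each RSD pool was below its own control, and the groups overlap.

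Of the other genes none passed for RSD (edgeR), and DESeq2 called 0 of the 8 genes in any class. Nrg3 was fitted below 0 in 15 of 17 classes, with a median log2 value of -0.18, and its CA1 levels were 4328, 5358, 5101 and 5259 CPM in the controls and 3444, 5241, 4579 and 4649 CPM after RSD (-0.18, SE 0.07, edgeR adjusted p = 0.297). In CA1 each RSD pool was below its own control, although the groups overlap. The median value of genes of 500 kb and more was below 0 in 16 of these 17 classes too, for example -0.09 in CA1 and -0.16 in DG. Nrg1 was fitted above 0 in 8 classes and below in 9, from -1.05 in microglia to 0.40 in Igfn1-led neurons. Nrg2 in astrocytes was at 113, 75.7, 131 and 86.5 CPM in the controls and 139, 183, 131 and 172 CPM after RSD, and in Npsr1-led neurons at 189.6, 181, 209.9 and 167 and 297, 232, 252 and 237 CPM. In both classes every RSD pool was at or above the highest control, yet the changes of 0.45 and 0.41 did not pass (edgeR adjusted p = 0.618 and 0.808). With the Erbb4 fall these were the 3 of 76 gene and class combinations in which control and RSD pools did not overlap, against 3.83% over all genes. Egfr in astrocytes was at 377, 363, 306 and 337 CPM in the controls and 231, 195, 194 and 370.2 CPM after RSD, a log2 change of -0.58 (SE 0.23, edgeR adjusted p = 0.37), with overlap through the nIL-1R1-/- pools. At an unadjusted p under 0.05, 20 of the 82 tests stood out (4 above and 16 below 0), where 9.58% of all tests did, and the median log2 value of the 8 genes was -0.13 beside -0.00 for all genes.

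The diet was compared in the same fit as PLX5622 pair against vehicle pair, 2 pools against 2. Of 76 tests of the 8 genes, 5 were called and all were higher with PLX5622, where 0.232% of all tests were called and 0.197% as higher. They were Erbb4 in DG, CA1 and CA2/3 and Nrg1 and Nrg3 in CA1, classes in which 0.076%, 1.97% and 0.243% of all genes were called. The 3 Erbb4 calls lie in classes where Erbb4 was at about the share that Gad2 had relative to inhibitory neurons. At an unadjusted p under 0.05, 12 tests of the 8 genes stood out (11 above 0), beside 6.59% of all tests. Erbb4 in DG was at 152 and 150.4 CPM in the vehicle control and RSD pools and at 363 and 235 CPM with PLX5622 (log2 change 1.02, SE 0.18, edgeR adjusted p = 0.0399). The 4 genotype pools, which served only for the spread, were at 113 to 144 CPM, below both PLX5622 pools. In CA2/3 Erbb4 was at 132 and 169 CPM against 226 and 315 CPM (0.95, SE 0.20, edgeR adjusted p = 0.0242), and Con-nIL-1R1-/-, for which the labels name no PLX5622, reached 223 CPM. In CA1 Erbb4 was at 179.6 and 222 CPM against 275 and 329 CPM (0.72, SE 0.16, edgeR adjusted p = 0.0158). The ligand Nrg3 in CA1 was at 4328 and 3444 CPM against 5358 and 5241 CPM (0.58, SE 0.0993, edgeR adjusted p = 0.00121). Nrg1 in CA1 was at 1115 and 845 CPM against 1350.3 and 1221 CPM (0.52, SE 0.13, edgeR adjusted p = 0.0348). For both ligands the genotype pools, at 4579 to 5259 and 1081 to 1334 CPM, were above the Stress-Veh pool.

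Depth differed with the diet in the same nuclei. A shallow DG cluster (2254 nuclei, median 545.5 UMIs) made up 52.0 and 62.9% of DG nuclei in the Con-PLX and Stress-PLX pools and 9.20 and 39.8% in Con-Veh and Stress-Veh. A shallow CA1 cluster (1829 nuclei, median 437 UMIs) made up 58.6 and 65.7% of CA1 nuclei against 8.25 and 21.0%. Within Con-PLX, CA1 Erbb4 was at 438 CPM in the shallow cluster and 179.8 CPM in the rest, and within Stress-PLX at 465 and 209.7 CPM. Without these clusters, an alternative chosen after the data were seen, the CA1 values were 0.27 for Nrg3 (edgeR adjusted p = 0.913), 0.19 for Erbb4 (0.959) and 0.29 for Nrg1 (0.913), and the DG value of Erbb4 was 0.68 (0.0926). CA2/3 nuclei were the same in this alternative, so the CA2/3 call could not change. A shallow cluster most like CA2/3 (3186 nuclei, median 831 UMIs, 86.1% from 2 pools) had been left without a class beforehand. Gene length moved with the diet as well. In CA1, genes of 500 kb and more had a median log2 change of 0.38 against -0.01 for shorter genes, and 71 of 234 were called (30.3%) against 1.38%. In CA2/3 these medians were 0.32 and -0.01, and in DG 0.10 and 0.00. Diet, depth and gene length cannot be told apart for these 3 long genes in these pools. The summed inhibitory markers in CA1 were at 54.9 and 58.1 CPM with vehicle and 71.0 and 102 CPM with PLX5622, and in DG at 86.6 to 90.1 CPM in all 4 diet pools. The DG sum was mostly Gad1, with means over 8 pools of 49.2 CPM for Gad1, 7.68 for Gad2 and 86.3 for the sum. Gad1 was at 13.3 CPM in CA1 and 11.9 CPM in CA2/3. Gad2 alone was at 9.20 and 7.07 CPM with vehicle and 10.4 and 7.22 CPM with PLX5622 in DG. In CA1 Gad2 was at 10.01 and 17.88 CPM with vehicle and 8.73 and 13.77 CPM with PLX5622. In CA2/3 Gad2 was at 6.803 and 14.3 CPM with vehicle and 5.05 and 12.98 CPM with PLX5622. The summed markers in CA2/3 were at 41.14 and 81.03 CPM with vehicle and 50.49 and 71.4 CPM with PLX5622. In CA1 and CA2/3, Gad2 was thus lower in each PLX5622 pool than in the vehicle pool of like stress state. It rests there on 8 UMIs in each PLX5622 pool in CA1 and 4 in each in CA2/3. The summed markers were higher with PLX5622 in CA1 in both stress states and in the CA2/3 controls. They were lower with PLX5622 in the CA2/3 RSD pools. The part of inhibitory RNA in these Erbb4 values was not tested. With 15 principal components the CA1 values were 0.16 for Nrg3 (edgeR adjusted p = 0.962), 0.05 for Nrg1 (0.997) and 0.81 for Erbb4 (0.862). The CA1 class of that clustering also held a cluster of 5089 nuclei led by Igfn1, so it was not the same set of nuclei. Over 15 alternatives each, the call was lost in 2 for Nrg3 in CA1, 5 for Nrg1 in CA1, 3 for Erbb4 in CA1, 6 for Erbb4 in CA2/3 and 7 for Erbb4 in DG. Lifting the glial filter changed none of these nuclei, and including pool-specific clusters changed no DG or CA1 nuclei. Those calls could not change there. For Erbb4 in CA2/3 the log2 change was 0.67 with pool-specific clusters included, chosen after the data were seen (edgeR adjusted p = 1.00), 0.58 with 15 components (adjusted p = 0.978), 0.72 with thinning (adjusted p = 0.185), 0.94 without the IL-1R1+/+ pair (adjusted p = 0.114) and 0.77 without sublibrary 4 (adjusted p = 0.0944). For Erbb4 in DG it was 0.74 with 15 components (edgeR adjusted p = 0.165), 0.95 with thinning (adjusted p = 0.135), 1.014 without the IL-1R1+/+ pair (adjusted p = 0.0921), 1.02 without the nIL-1R1-/- pair (adjusted p = 0.132) and 0.70 without sublibrary 4 (adjusted p = 0.325). Without the top Scrublet scores the values of Erbb4 in CA2/3 and DG were 0.91 and 0.99 (edgeR adjusted p = 0.0523 and 0.105). In CA1, Erbb4 without sublibrary 1 was at 0.58 (edgeR adjusted p = 0.198), and Nrg1 was at 0.54 without sublibrary 1 (adjusted p = 0.0638), 0.47 without sublibrary 4 (adjusted p = 0.0653) and 0.41 with thinning (adjusted p = 0.106).

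**Figure D4:**
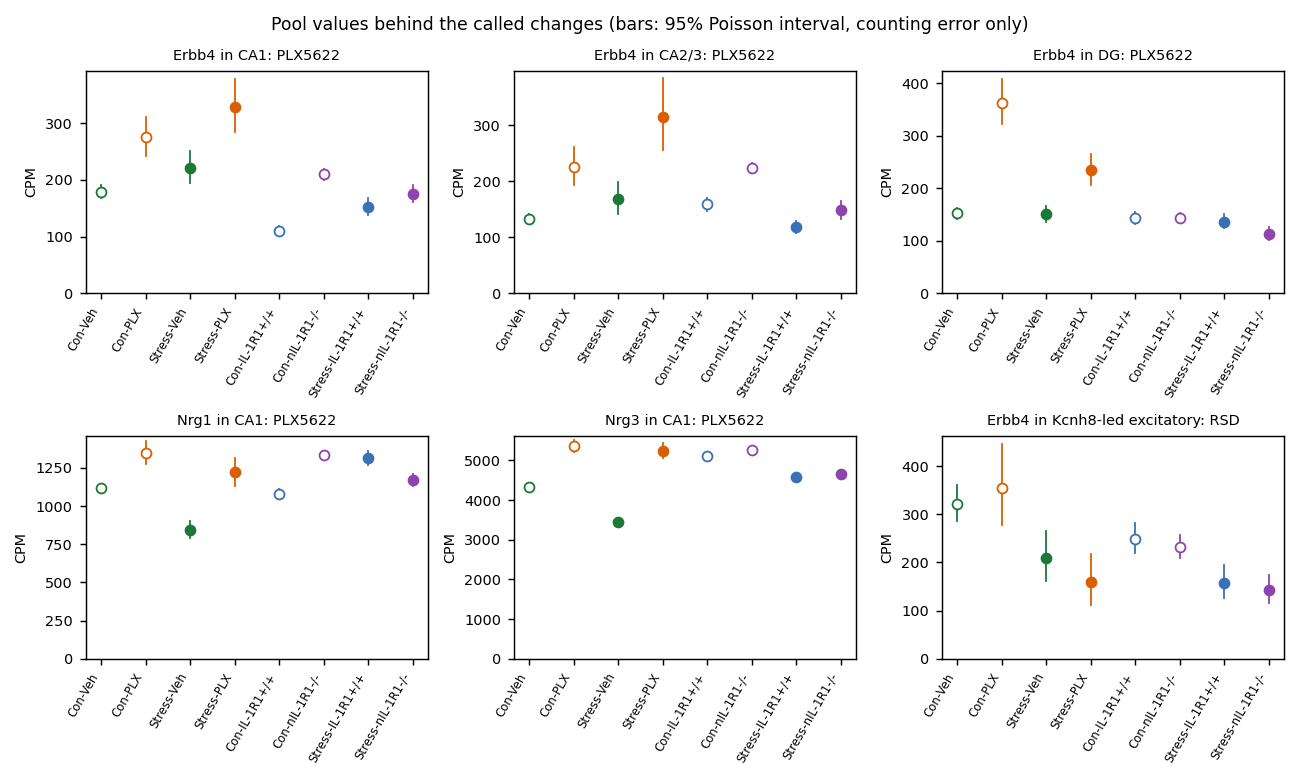
CPM in each pool (points, open for control and filled for RSD, coloured by pair) with 95% Poisson intervals that cover counting error only, for the 6 gene and class combinations called for PLX5622 or RSD. In the Kcnh8-led panel the 4 control pools (232 to 354 CPM) lie above the 4 RSD pools (142 to 209 CPM), and in the DG panel both PLX5622 pools lie above all others.

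In the inhibitory and oligodendrocyte classes, where Erbb4 is high, no diet change was called. Neurogliaform neurons were at 8904 and 7618 CPM with vehicle and 11497 and 10279.8 CPM with PLX5622 (0.46, SE 0.17, edgeR adjusted p = 0.775), and the groups did not overlap. Oligodendrocytes were at 2239 and 1904 CPM against 2448 and 1850.1 CPM (0.02, SE 0.16). Over 15 classes Erbb4 was fitted above 0 in 14, with a median of 0.45 and values from -0.01 in Kcnh8-led to 1.15 in Fn1-led neurons, and Nrg3 in 15. The median value of genes of 500 kb and more was above 0 in each of these classes too, except OPC at -0.17. Egfr in Adarb2/Vip neurons was at 103 and 100.3 CPM with vehicle and 58.5 and 60.6 CPM with PLX5622 (-0.77, SE 0.34, edgeR adjusted p = 0.869). Egfr in astrocytes (-0.12, SE 0.33) and Erbb3 in oligodendrocytes (0.08, SE 0.44) were measured too coarsely to see changes of the size of their errors. Microglia were too few for this comparison, and Erbb2 passed the filter on low counts in no class.

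The genotype comparison, nIL-1R1-/- pair against IL-1R1+/+ pair, called none of the 8 genes in 82 tests (edgeR), where 0.00623% of all tests were called. DESeq2 called 0 as well, and 9 had an unadjusted p under 0.05 (8 above and 1 below 0), where 2.8% of all tests did. Erbb4 in neurogliaform neurons was at 11893 and 9752 CPM in the IL-1R1+/+ control and RSD pools and 11348 and 10546 CPM in the nIL-1R1-/- pools (0.03, SE 0.16). In CA1 it was at 109.6 and 153 against 210.1 and 175 CPM (0.59, SE 0.15, edgeR adjusted p = 0.528). Nrg1 in CA2/3 was at 314 and 311 CPM against 427 and 474 CPM (0.53, SE 0.13, edgeR adjusted p = 0.143). Here both nIL-1R1-/- pools were above both IL-1R1+/+ pools, at the levels of the diet pools (414 to 496 CPM). Erbb4 in astrocytes was the 1 of the 9 below 0, with -1.35 (SE 0.32, edgeR adjusted p = 0.214), and rests on the Con-IL-1R1+/+ pool at 1446 CPM, beside 334 to 584 CPM in the other 7 pools.

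**Figure D5:**
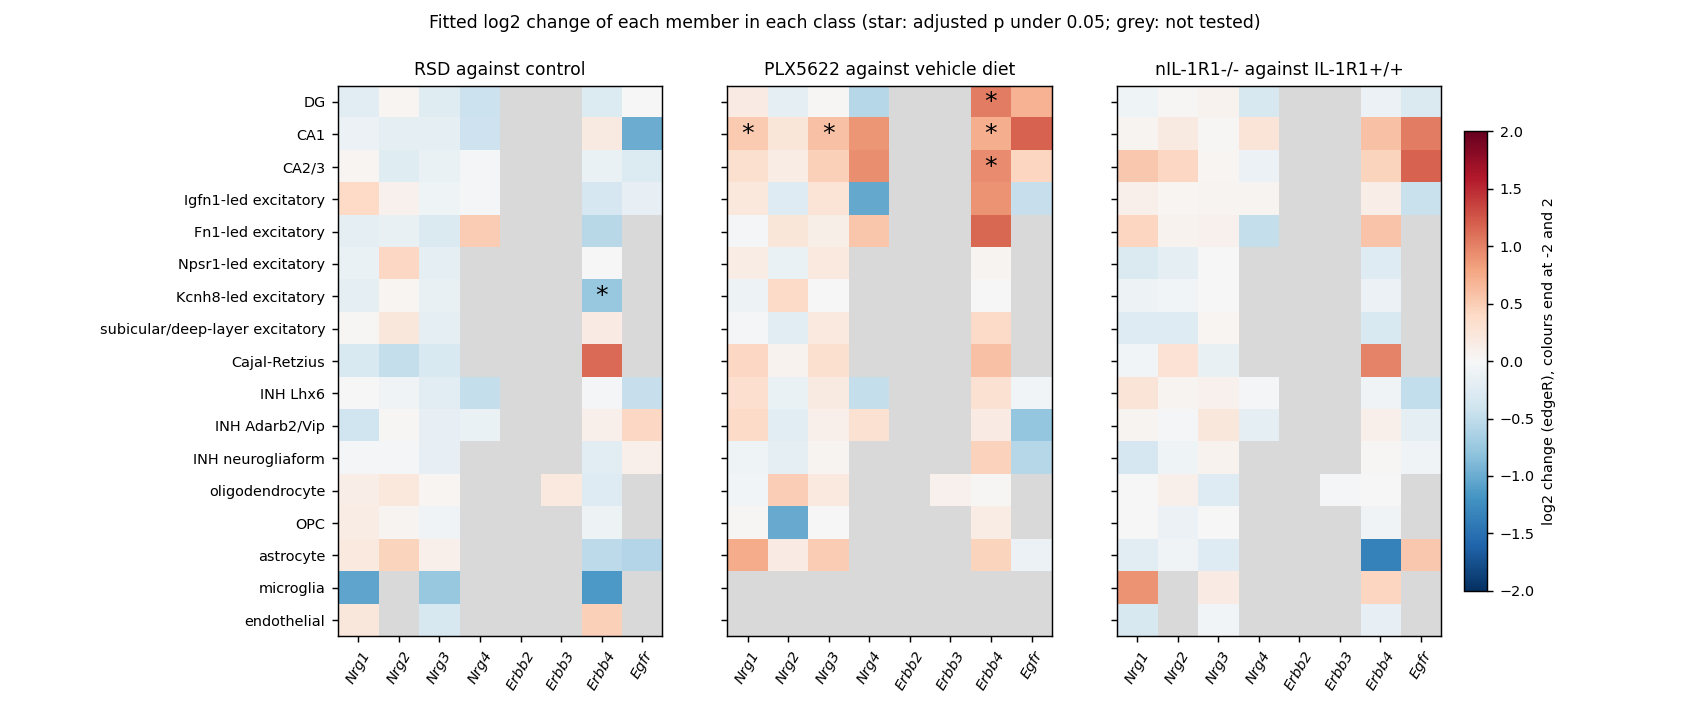
Fitted log2 change of each gene (columns) in each class (rows) for RSD, PLX5622 and nIL-1R1-/-, red for higher and blue for lower, with a star where the edgeR adjusted p is under 0.05 and grey where the gene was not tested. The stars are Erbb4 in Kcnh8-led neurons for RSD and Erbb4 in DG, CA1 and CA2/3 with Nrg1 and Nrg3 in CA1 for PLX5622.

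The surrounding pathway was taken as a list of 41 genes, of other EGF-family ligands, proteases that process ligands, adaptors and scaffolds, downstream kinases and genes that restrain the receptors, of which 36 were tested in at least 1 class. For RSD 0 tests rose and 1 fell of 474, where 0.393% of all tests were called. The fall was Ptprz1, a receptor phosphatase gene, in Igfn1-led neurons (log2 change -0.87, SE 0.15, edgeR adjusted p = 0.00551). In this class 2.43% of all genes tested were called for RSD. For nIL-1R1-/- 0 of 474 were called by edgeR, where 0.00623% of all tests were called, with 7 at an unadjusted p under 0.05, where 2.8% of all tests were. The median log2 values over these tests were -0.08 for RSD and -0.00 for nIL-1R1-/-, beside medians of all genes of -0.00 and 0.00. The genes that process ligands were tested 70 times for RSD and none passed (edgeR). At an unadjusted p under 0.05 there were 8, beside 9.58% of all tests.

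The levels of these pathway genes by class are given for genes picked after their values were seen. Partners of the receptors differed in where they were highest. Tgfa, a ligand of EGFR, was at 186 ± 72.5 CPM in OPC (SD, n = 8) and 123 CPM in microglia, and Egf, Areg, Ereg, Btc and Epgn had means of 16.2 CPM or less in every class. Oligodendrocytes were highest for the scaffold gene Magi2 (7034 ± 811 CPM), the adaptor gene Gab1 (915 ± 233 CPM) and Erbin (835 ± 191 CPM), which encodes an ERBB2-binding scaffold. Ptprz1 was highest in OPC (2024 ± 427 CPM), and Lrig1, a gene that restrains ErbB receptors, in astrocytes (220.0 ± 57.1 CPM). Dlg4, the postsynaptic scaffold that binds ERBB4, was highest in Fn1-led excitatory neurons (244 ± 39.0 CPM), with 237 CPM in CA1. The sheddase gene Adam10 was highest in endothelial cells (295 ± 50.9 CPM, n = 7) and Bace1 in committed OPC (117 ± 39.5 CPM, n = 3) and oligodendrocytes (107 CPM).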

How the data were processed

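Nuclei of pooled mouse hippocampi were counted by the authors with the Parse Biosciences split-pool pipeline, and the deposited matrices hold UMI counts per gene and nucleus, with no normalization. The submitters' processing notes name mm39 and Seurat 4.1.1, and the annotation release is not given in the sources used here. The study tested nuclei with MAST, whereas here counts were summed per class and pool. Pools were assigned by the treatment in the labels, no table column of other samples was present (0 unused), and no barcode was shared between pools (0 shared). The 8 genes, the pathway list and the tests were chosen with earlier results of these data known.

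Nuclei with over 20% mitochondrial UMIs were left out. The rest were clustered (scanpy 1.11.5, leidenalg 0.10.2, 2000 variable genes without the 8 genes, 30 principal components, 15 neighbours, resolution 1.0, each nucleus capped at 1000 UMIs) and named from marker lists. The naming rules, the classes named by a leading gene, and the filter on neuronal RNA in glial nuclei were settled after cluster tables had been seen and before the 8 genes were compared. Scrublet called 0 to 0.0409% of nuclei in 6 pools and 22.9 and 12.2% in the nIL-1R1-/- pools, so its calls were not used, and leaving out the top 6% of scores was an alternative.

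Classes with 20 or more nuclei in a pool entered edgeR 4.0.16 (R 4.3.3) quasi-likelihood fits on the deposited counts, with the pair of pools as a block, at an adjusted p of 0.05. DESeq2 1.42.0 was an alternative. Other alternatives were the filter, thinning to 500 UMIs, 15 components, a 5% mitochondrial limit, and leaving out pairs or sublibraries. The fit was tested on simulated data. CPM were computed per class and pool, and log scales are used with a pseudocount of 1. Intervals are exact at 95% and cover counting error only. Named were all 8 genes, pathway genes called for RSD or nIL-1R1-/-, the 3 genes most like each of the 8 (some results on genes outside the 8, among them the PLX5622 comparison of the pathway list, are not reported here), and Syt1 and Snap25 as neuronal RNA. Gad2, Meg3, Il1r1 and the pathway genes given by their highest class were named after their values had been seen. Sequences came from GRCm39 (biopython 1.88).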

Additional observations from a re-analysis of the deposited data

Results flagged for a closer look

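Among 135 groups of 4 control or 4 RSD pools, 7 held 1 pool far from the other 3 by Dixon's ratio, where chance alone gives about 1 in 20. Nrg1 in neurogliaform neurons was at 1060.0 CPM in Stress-IL-1R1+/+ and 774 to 791 CPM in the other RSD pools. Nrg2 in CA2/3 was at 85.6 CPM in Stress-nIL-1R1-/- and 64.8 to 68.2 CPM in the others, and in Kcnh8-led neurons at 191 CPM in Con-Veh and 242 to 251 CPM in the other controls. Nrg3 in astrocytes was at 1320.0 CPM in Con-PLX and 753 to 832 CPM in the other controls. Erbb4 in Con-PLX was at 363 CPM in DG, beside 143 to 152 CPM, and at 555 CPM in Igfn1-led neurons, beside 236 to 243 CPM. Erbb4 in astrocytes was at 1450.0 CPM in Con-IL-1R1+/+ and 424 to 455 CPM in the other controls.

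Of 145 contrasts between pairs, 7 were flagged, with RSD to control log2 ratios of opposite sign whose intervals also kept opposite signs. Opposite signs occurred without a flag too, as for Erbb4 in Lhx6 neurons between the vehicle and PLX5622 pairs. Each ratio is from 1 pool against 1, and the differences were not tested. Between the vehicle and PLX5622 pairs, Nrg1 was at 0.24 and -0.96 in Adarb2/Vip neurons and at 0.34 and -0.32 in Igfn1-led neurons. Between the IL-1R1+/+ and nIL-1R1-/- pairs, Nrg1 was at 0.27 and -0.50 in Lhx6 neurons and at 1.35 and -0.85 in astrocytes. Between the same pairs Erbb4 was at 0.48 and -0.26 in CA1 and at -0.65 and 0.70 in Npsr1-led neurons, and Egfr at 0.61 and -1.29 in Lhx6 neurons.

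Outside the classes, Nrg1 reached 5880.0 CPM (95% Poisson interval 5733 to 6029) in the 308 unnamed nuclei with medium spiny markers.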

How the results depend on the processing

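No neighbouring pair of classes was called under any alternative run. Levels in each gene's highest class moved by less than the spread with thinning, without the top Scrublet scores and with the 5% mitochondrial limit. Igfn1-led neurons still became highest for Nrg1 with thinning and without the top Scrublet scores. Lifting the glial filter (chosen after seeing the data) could move only Erbb2 and Erbb3 there, and moved both by less than the spread. Including pool-specific clusters (also chosen after seeing the data) left the nuclei of each highest class unchanged, so these levels could not move. With 15 components only the Erbb3 class was found again (129.5 CPM), the other 7 highest classes had no value, and Lhx6 neurons were highest for Erbb4, astrocytes for Egfr and Cajal-Retzius neurons for Nrg1. For RSD, 1 call of the 8 genes became 0 with DESeq2, thinning, without the top Scrublet scores or without sublibrary 1, 3 with no filter or without sublibrary 4, and 2 with the neuronal-RNA filter on glia lifted (chosen after seeing the data). Leaving out 1 pair gave 1 to 2 calls. For PLX5622, 5 calls became 3 without the top Scrublet scores or sublibrary 1, 2 without sublibrary 4, 1 with 15 components and 1 without the shallow CA1 and DG clusters (chosen after seeing the data). The call left without the shallow clusters was Erbb4 in CA2/3, whose nuclei were unchanged there. Leaving out 1 pair gave 3 to 4 calls. For nIL-1R1-/-, 0 calls became 1 with no filter or without sublibrary 2, and 2 without sublibrary 4, and stayed 0 with 1 pair left out. No called change reversed. The cause of these differences was not tested.

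The labels give the pools no shared animals, and deviations of paired pools correlated at -0.0972 to 0.295 (median 0.0962), over 0.1 in 32 of 66 comparisons. Without the replicate block for the pairing, RSD calls fell from 1 to 0. Counts limit Erbb2, Erbb3 and Nrg4, and the shallow PLX5622 pools limit the diet comparison.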
